A study of Mus musculus with 8 samples.

Results

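The cytosolic ribosomal protein genes are the genes whose array name starts Rpl or Rps followed by a number and at most 1 letter, together with Rplp0, Rplp1 and Rplp2. They were picked by name, with no measured value. On the array this name pattern took 80 genes of 29608 gene names and 183 probes of 39429. Of the 80 genes, 42 encode proteins of the large subunit, 29 encode proteins of the small subunit, 3 encode the P stalk proteins and 6 are divergent paralogs (Rpl3l, Rpl10l, Rpl39l, Rps27l, Rps4l and Rpl32l). A gene's values below are those of its brightest probe, except where a further probe is named.

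The skin of the mouse paw was measured 30 and 60 min after PACAP or vehicle had been injected into the footpad. The sample labels gave the strain C57BL/6J for every sample, WT and KO, while the methods name the WT strain C57BL/6. PAC1R KO mice were Adcyap1r1 -/-, which lack the receptor. All mice were 9 to 10 weeks old and anaesthetised, and 5 µL was given intradermally, either vehicle (saline with 0.1% BSA) or PACAP at 1e-07 mol/L in the same vehicle. Every group, vehicle included, therefore had an injected paw. The 8 RNA samples were hybridised as 4 pairs of PACAP and vehicle (WT 30 min, KO 30 min, WT 60 min, KO 60 min), and each pair was put on 2 arrays with Cy3 and Cy5 exchanged. The 2 arrays of a pair carry the same RNA and count as 1 replicate, so no comparison has a replicate between animals. PACAP was injected into 6 mice of each genotype and the skin samples were ground one by one, but how these mice were shared out over the RNA samples, and whether RNA was pooled, is not given in the sources used here. The WT arrays shared 1 slide and the KO arrays another, and so slide and genotype cannot be told apart. The array probe of the deleted gene did not separate the labels. It read 8.27 to 8.76 over the WT samples and 7.91 to 8.56 over the samples labelled KO. Whether that probe lies in the deleted stretch is not given in the sources used here. By immunostaining, the paper saw the PAC1R protein in the eccrine gland of WT mice and not in that of KO mice. The 12 epidermis and dermis markers (keratins, collagens and others) were above background in every channel, at a median level of 14.79 on the log2 scale, as were the 14 skeletal muscle markers at 13.79.

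A cytosolic ribosome has a small subunit, which reads the mRNA, and a large subunit, which joins the amino acids. Each holds one copy of most of its proteins, and the genes for these proteins are transcribed at similar, high rates in nearly all cells. Their mRNAs are short and long-lived. Most begin with a 5′ terminal oligopyrimidine tract (a C followed by further C or T), through which the mTOR pathway controls their translation. Because they are abundant and stable, several of them (Rpl13a, Rps18, Rpl32, Rplp0) serve as reference genes in expression studies. The P stalk proteins Rplp0, Rplp1 and Rplp2 form the arm of the large subunit that recruits elongation factors. Among the divergent paralogs, Rpl3l is a form of Rpl3 made in heart and skeletal muscle, while Rpl10l and Rpl39l are best known from the male germ line.

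The array measured these genes with 60-base probes, of which those on which the results turn are shown first. Capitals mark the letters AATAAA and ATTAAA, the common forms of the poly(A) signal near the 3′ end of an mRNA. They are marked wherever they stand in a probe, and whether they work as a signal there was not tested. Coordinates are those of the deposited files in build mm9, and each sequence is 5′ to 3′ on the strand given. The first 3 are bright probes of the main transcripts of large and small subunit genes. They are followed by 30-base stretches of dim probes that carry the same gene names but lie elsewhere at the locus.
Rpl6, bright (chr5:121658820-121658879, plus): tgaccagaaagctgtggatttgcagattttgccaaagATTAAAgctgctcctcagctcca
Rps25, bright, across a junction (chr9:44216951-44218094, plus): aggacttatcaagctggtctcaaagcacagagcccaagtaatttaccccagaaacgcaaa
Rpl39, bright, first 30 bases (chrX:34622618-34622677, minus): gactgaggatttatactgaattgtcatcaa
Rpl6, dim, 276 bp to the 3′ side (chr5:121659155-121659214, plus): ttagaggcacatacactgccatggctgcct
Rps25, dim, 153 bp to the 3′ side (chr9:44218247-44218306, plus): ttggaaaAATAAAactttattgaatcaaat
Rpl39, dim, 44 bp to the 3′ side (chrX:34622515-34622574, minus): tAATAAAatatagaacctttcaaaatgctt
The distances are from the brightest probe of the gene. In the dim Rps25 probe 47 bases followed these letters and in the dim Rpl39 probe 53 bases followed them, so that most of the probe lay 3′ of the letters.

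Another 4 probes carried the widest changes among the genes given by a single brightest probe. They are shown here by the stretch that holds the signal letters, or by the first 30 bases where there are none. Rpl3l is given whole as it spans an exon junction.
Rplp2 (chr7:148637182-148637241, plus): gATTAAAttcctgctcccctgcaAATAAAg
Rpl30 (chr15:34372831-34372890, minus): tagctggtgtttgacgctctggattataat
Rpl39l (chr16:10174657-10174716, plus): gttcagtAATAAAtatgtgaaaccttttgt
Rpl3l (chr17:24872413-24872681, plus): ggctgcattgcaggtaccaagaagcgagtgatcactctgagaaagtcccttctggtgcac
The letters of either form stood somewhere in 38.8% of the 183 member probes, read on the probe's own strand, and in 16.7% of all 39429 probes. The share was 37.5% for 16 dim member probes and 38.8% for 147 bright ones.

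The starts of the genes were read from RefSeq promoter sequences (build GRCm38.p6), which held 59 of the 80 genes. Capitals mark the unbroken run of C and T that begins with a C at the annotated start, 20 bases before the start are shown, and the tract is counted on the gene's own strand alone.
Rps6 (chr4:86857338-86857387, minus): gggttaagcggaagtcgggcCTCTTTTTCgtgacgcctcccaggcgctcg
Rpl28 (chr7:4792945-4792994, plus): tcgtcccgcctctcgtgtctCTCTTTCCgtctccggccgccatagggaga
Rplp2 (chr7:141447631-141447680, plus): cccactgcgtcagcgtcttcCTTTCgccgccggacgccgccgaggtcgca
Rpl10l (chr12:66284372-66284421, minus): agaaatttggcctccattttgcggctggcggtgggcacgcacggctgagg
A run of at least 5 such bases stood at the annotated start of 14 of 59 member genes (23.7%) and of 813 of all 27025 genes in the table (3.01%). Among the divergent paralogs 1 of 5 had it. A start annotated a few bases away from the used one hides a tract, so a missing match says only that the letters were not at that position.

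The ribosomal protein genes were among the brightest features of the skin RNA. A level here is the mean log2 intensity over the 8 RNA samples, after background correction and normalisation. The brightest probes of the 80 genes had a median level of 15.27, from 6.06 (Rpl10l) to 16.02 (Rps9), and the median of all probes was 6.79. Member probes made up 84 of the 465 probes at a level of 15 or more. Of the 183 member probes, 178 were well above background in all 16 channels, compared with 20286 of all 39429 probes, and 0 spots were saturated. The other 5 had dim spots in at least 1 channel, and Rpl10l was the only gene whose brightest probe was among them and was left out of the tests of levels. For 41 of the 80 genes at least 1 probe shared a run of 25 bases with a probe under another name, and 9 probes of Rpl13, Rpl36, Rps27 and Rps29 were placed by the files on another chromosome than RefSeq gives for the gene. Signal from such near-identical copies cannot be separated from that of the gene, and the levels of those genes are uncertain to that extent.

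The first question was whether PACAP changed these genes at all. The ratio below is the log2 of PACAP over vehicle from the authors' Feature Extraction software, averaged over the 2 dye orientations. These ratios had been fitted with LOWESS, a curve that sets the typical ratio to 0 at each brightness, so a median near 0 is partly fixed by the processing. The median ratio of the 80 genes was -0.04 at WT 30 min, 0.05 at KO 30 min, -0.03 at WT 60 min and -0.01 at KO 60 min, and with median centring alone it was -0.29, 0.50, -0.11 and -0.06. The sign of the median turned at KO 60 min with normexp and loess (0.00, above 0) and, at single dye orientations, in each comparison. Of the 80 genes, 73, 70, 70 and 77 lay within 0.2 of 0 in the 4 comparisons in that order. Among all probes above background in at least 1 channel on both arrays, those shares were 50.8%, 41.6%, 72.5% and 74.9%. At a level of 14 or more, where 73 of the 80 genes lay, the shares were 95.9%, 91.8%, 90.4% and 98.6% of the genes and 76.6%, 71.1%, 90.8% and 93.9% of the 1199 other probes. The SD over the 73 genes was 0.0999, 0.135, 0.135 and 0.0702, against 0.190, 0.254, 0.143 and 0.150 over those other probes.

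Much of this small spread did not repeat between the 2 arrays of a pair. The correlation between the 2 dye orientations across the 80 genes, which are not independent replicates, was 0.23 at WT 30 min, 0.35 at KO 30 min, 0.22 at WT 60 min and -0.20 at KO 60 min. The sign was the same on both arrays for 39, 41, 34 and 22 genes. The median of the array with PACAP in Cy5 was above that with PACAP in Cy3 in every comparison, for example 0.04 against -0.06 at KO 60 min. For a single gene, either array differed from the mean of both by a median of 0.088, 0.089, 0.081 and 0.085 in the 4 comparisons, which includes that offset between the dyes and says nothing of the spread between animals.

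**Figure D1:**
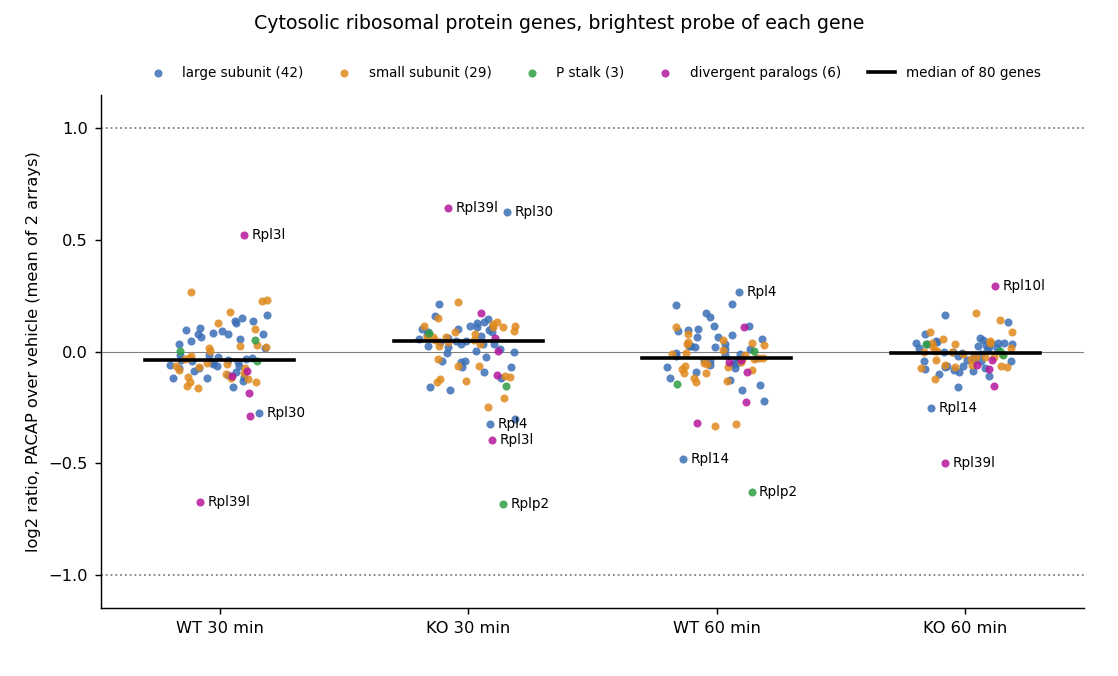
The log2 ratio of PACAP over vehicle (vertical axis) of each ribosomal protein gene in the 4 comparisons, by subunit group, from the brightest probe and the mean of both dye orientations as deposited. Most points lie within 0.2 of 0, and the points far from 0 are Rplp2, Rpl30, Rpl14 and the divergent paralogs Rpl3l and Rpl39l.

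Ribosomal protein genes past the fold and p thresholds were next counted. To pass, the mean of a probe had to reach 2.0-fold, or fall to 0.5-fold, and both arrays had to show that direction with a p from Feature Extraction under 0.01. These thresholds were passed by 0 of the 80 brightest probes in each of the 4 comparisons. Of all probes, 0.350% passed at WT 30 min, 0.708% at KO 30 min, 0.692% at WT 60 min and 0.292% at KO 60 min. At those shares fewer than 1 gene of 80 would be counted, so the zeros are near the background. Over all 183 member probes, 1 passed at KO 30 min and 1 at WT 60 min, and both were the same dim probe of Rpl6.

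That probe lies on the 3′ side of the other Rpl6 probes. Rpl6 encodes a large subunit protein. The dim probe had ratios of 0.50 at WT 30 min, 1.399 at KO 30 min, 1.71 at WT 60 min and -0.42 at KO 60 min. On single arrays it read 1.301 and 1.497 at KO 30 min and 1.87 and 1.54 at WT 60 min. The brightest Rpl6 probe read 0.13, -0.09, 0.21 and -0.01, and the other bright ones gave similar ratios. The level of the dim probe was 7.89 and 8.28 in vehicle and PACAP at WT 30 min, 7.48 and 8.52 at KO 30 min, 8.37 and 9.86 at WT 60 min, and 10.17 and 9.78 at KO 60 min. It was thus highest in the 3 samples WT 60 min PACAP and both of KO 60 min, while the brightest probe stayed between 15.19 and 15.41 in all 8 samples. The level at this probe was higher at 60 than at 30 min by 1.504 on the log2 scale (SE 0.39), which did not pass the limma test across all probes (adjusted p = 0.059).

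In the limma tests that take each pair of RNA samples as 1 value, 0 ribosomal protein genes passed. The mean of the 4 comparisons was set against 0, the PACAP effect in KO against that in WT, and the effect at 60 against that at 30 min. Of 30351 probes 0 passed in each (0%), with 678, 972 and 483 at an unadjusted p under 0.05. Of the 80 genes 0 had an unadjusted p under 0.05 in any of them. Rpl30 had the smallest p for KO against WT, at a difference of 0.48 (SE 0.26, adjusted p = 0.839 by limma). Rpl14 had the smallest for 60 against 30 min, at -0.50 (SE 0.21, adjusted p = 1 by limma). For the mean of all comparisons it was Rps4l at -0.17, listed by RefSeq as a transcribed pseudogene, and then Rplp2 at -0.32.

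Of the P stalk genes, Rplp2 differed most between PACAP and vehicle, while its partners lay closer to 0. Its ratio was 0.05 at WT 30 min, -0.68 at KO 30 min, -0.63 at WT 60 min and 0.00 at KO 60 min. Both arrays gave nearly the same ratio where it was low, -0.70 and -0.66 at KO 30 min and -0.63 and -0.63 at WT 60 min. With median centring in place of LOWESS it was still below 0 in both, at -0.18 and -0.63, while its value at WT 30 min turned to -0.25. In levels, Rplp2 was 15.81 with vehicle and 15.12 with PACAP at KO 30 min, and 15.84 and 15.30 at WT 60 min, whereas at WT 30 min it was 15.62 and 15.67 and at KO 60 min 15.58 and 15.55. The 2 low values were thus those of PACAP samples, and the 2 highest those of the vehicle samples hybridised with them. In the same order of comparisons, Rplp0 had ratios of -0.04, -0.15, 0.00 and -0.02, and Rplp1 had 0.00, 0.08, -0.14 and 0.04. Its brightest probe, shown above, carries both forms of the poly(A) signal letters.

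Rps13 of the small subunit and Rpl28 of the large subunit had negative ratios in the same 2 comparisons as Rplp2. Rps13 read -0.25 at KO 30 min and -0.32 at WT 60 min, and Rpl28 read -0.30 and -0.22. The further probes of these genes, 1 for Rps13 and 2 for Rpl28, were below 0 in both comparisons too. With median centring alone both genes stayed below 0 at WT 60 min, but their KO 30 min values turned to 0.22 (Rps13) and 0.16 (Rpl28). At WT 30 min they read 0.02 and 0.16 in that order, which median centring alone turned to -0.22 and -0.13.

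Rpl14, of the large subunit, had negative ratios at 60 min in both genotypes. Its ratio was -0.48 at WT 60 min (-0.27 and -0.69 on the single arrays) and -0.25 at KO 60 min (-0.07 and -0.43), and 0.10 and 0.16 at WT and KO 30 min. A second bright probe of Rpl14 gave -0.47 and -0.22 at 60 min. Median centring alone kept the sign at 60 min, at -0.57 and -0.25, and turned that at WT 30 min to -0.13. Rpl4, also of the large subunit, read 0.15, -0.32, 0.27 and 0.01, of which median centring turned those at WT and KO 30 min to -0.08 and 0.03.

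Rpl30 was the dimmest of the core large subunit genes by its single probe, with a level of 11.05. Its level was 10.95 and 10.66 in vehicle and PACAP at WT 30 min, 11.08 and 11.73 at KO 30 min, 10.94 and 11 at WT 60 min, and 11.04 and 11 at KO 60 min. The KO 30 min PACAP sample stood above the other 7, and WT 30 min PACAP was the lowest. The ratio was -0.28 at WT 30 min and 0.63 at KO 30 min, with the same sign on both arrays of each, and -0.34 and 0.73 with median centring alone. Whether this probe reads the mature mRNA of Rpl30 was not tested.

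Among the 6 divergent paralogs, Rpl3l and Rpl39l had wide level ranges over the 8 samples (0.91 and 0.76), Rps4l and Rps27l had 0.331 and 0.276, and Rpl32l and Rpl10l, at 0.158 and 0.133, were below the median of 0.19 over the 80 genes. Rpl3l was 10.84 with vehicle and 11.38 with PACAP at WT 30 min, and 10.99 and 10.61 at KO 30 min. At WT 60 min it was 11.52 and 11.49, and at KO 60 min 11.14 and 11.12. The 2 treatments thus differed in opposite directions at 30 min, by ratios of 0.52 (WT) and -0.40 (KO), and their levels lay within 0.03 of each other at 60 min. The 14 skeletal muscle genes had ratios of the same sign, with a median of 0.75 at WT 30 min (14 of 14 above 0) and -0.64 at KO 30 min (1 of 14 above 0), against 0.02 and 0.00 at 60 min. The share of the channel signal held by these muscle genes went from 0.269% to 0.427% at WT 30 min and from 0.352% to 0.257% at KO 30 min. In bulk skin, more or fewer muscle cells and more or less RNA per cell cannot be told apart, and the part of muscle content in the Rpl3l ratio was not tested.

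Rpl39l ran the other way from Rpl3l at 30 min, with ratios of -0.67 (WT) and 0.64 (KO). The 60 min ratios were -0.32 (WT) and -0.50 (KO). All 8 single arrays gave the sign of their comparison's mean, and median centring alone kept the 4 signs at -0.56, 0.56, -0.27 and -0.42. Rps27l and Rpl32l were bright, at 14.29 and 14.65, and stayed within 0.18 of 0 in the 4 comparisons. Rps4l was below 0 in each, between -0.11 and -0.23, on all 8 arrays, although median centring turned its value at KO 30 min to 0.02. Rpl10l was not well above background in several channels, and its ratios of -0.29 to 0.29 carry no direction.

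Of the genes often used as references, Rpl13a and Rpl19 had narrow level ranges over the 8 samples by their brightest probes, at 0.104 and 0.105, and wider ones by their other probes (0.454 and 0.460, and 0.209), while Rps18, Rpl32 and Rplp0 had 0.205, 0.218 and 0.222, above the median of 0.19 over the 80 genes. Rpl13a had ratios of -0.03, 0.05, 0.02 and -0.06 at WT 30 min, KO 30 min, WT 60 min and KO 60 min, and its level over the 8 samples ran from 14.61 to 14.72. Rps18 read -0.12, 0.03, -0.07 and -0.03. Rpl32 read -0.06, -0.04, 0.12 and -0.01, and Rpl19 -0.05, 0.03, -0.06 and -0.02. Of the small subunit genes, Rps6, whose protein is phosphorylated in response to mTOR signalling, read -0.08, 0.07, 0.11 and 0.00, Rps3 read -0.12, 0.13, -0.01 and -0.02, and Rps27a, a ubiquitin fusion, read 0.02, 0.09, -0.03 and 0.02. Rps29 alone among these was above 0 in all 4 comparisons, at 0.23, 0.12, 0.03 and 0.09, although median centring turned the values at WT 30 and 60 min to -0.07 and -0.02 and 1 of its 8 arrays was below 0. With median centring alone all 8 of these genes were below 0 at WT 30 min and above 0 at KO 30 min.

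That change with the normalisation touched nearly all bright members. When each array was only centred on the median of its probes, the median ratio of the ribosomal protein genes became -0.29 at WT 30 min, 0.50 at KO 30 min, -0.11 at WT 60 min and -0.06 at KO 60 min. With it, 1 of 79 genes at WT 30 min and 77 of 79 at KO 30 min were above 0. Other probes at a level of 14 or more moved likewise, to medians of -0.23, 0.42, -0.08 and -0.06, so members lay beside other features of the same brightness. These medians differed widely between dye orientations, at 0.26 and -0.77 at WT 30 min and 0.91 and 0.04 at KO 30 min. Whether the ribosomal protein RNA was shifted as a whole at 30 min, or whether the bright end of these arrays was, cannot be told apart from these files.

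**Figure D2:**
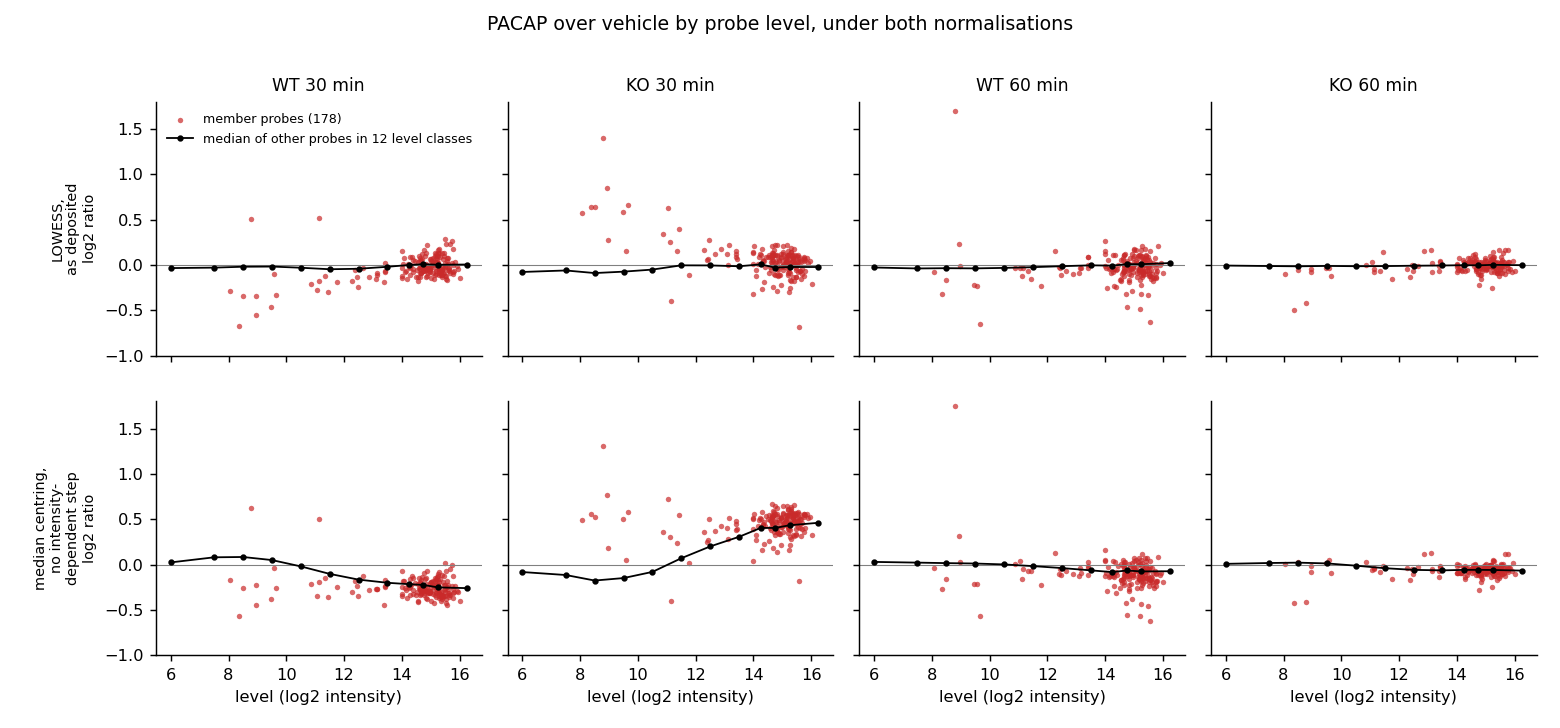
The log2 ratio of PACAP over vehicle against the level (mean log2 intensity) of 178 member probes above background in every channel, for the 4 comparisons, with the deposited LOWESS ratios in the upper row and median centring alone in the lower row. The line joins medians of the other probes in 12 level classes, and without LOWESS the bright members follow this line to -0.29 at WT 30 min and 0.50 at KO 30 min.

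The share of total signal held by the member probes was also computed. The signal here was background-subtracted, with no dye normalisation, and the shares are means over the dyes. At WT 30 min the 183 member probes held 8.07% of it with vehicle and 7.46% with PACAP. At KO 30 min they held 7.10% with vehicle and 8.07% with PACAP. At WT 60 min the shares were 7.78% and 7.40% in the same order, and at KO 60 min 7.41% and 7.33%. The direction was the same in both dyes of each comparison, although Cy5 gave a higher share than Cy3 for every RNA sample, for example 8.76% against 7.37% in the vehicle sample of WT 30 min. PACAP was lower than vehicle at WT 30 min and higher at KO 30 min, and the vehicle samples differed from each other by as much as PACAP from vehicle.

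**Figure D3:**
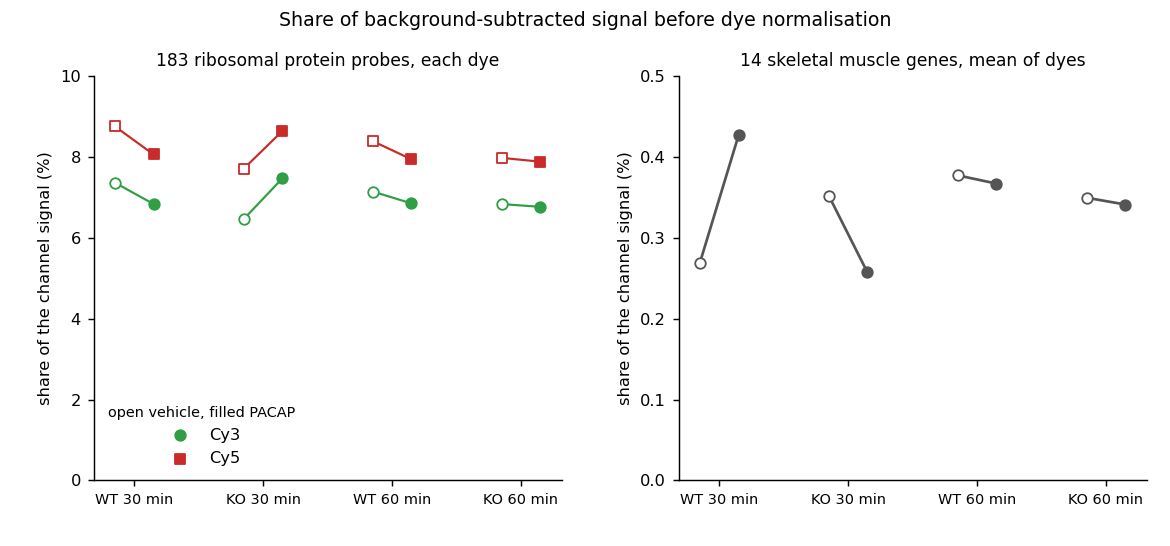
The share of the background-subtracted channel signal (percent, vertical axes) in each comparison, with vehicle as open and PACAP as filled symbols. On the left are the 183 ribosomal protein probes in each dye, lower with PACAP at WT 30 min and higher at KO 30 min, and on the right the 14 skeletal muscle genes as means over the dyes, which run from 0.269% to 0.427% at WT 30 min and from 0.352% to 0.257% at KO 30 min.

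Dim probes that carry ribosomal protein gene names kept their ratios more closely under the other normalisations. There were 16 such probes of 14 genes, with a level from 8 to 12 and above background in all 16 channels, a range chosen after the values were known. At WT 30 min 14 of the 16 were below 0, all on both arrays, with a median ratio of -0.28. At KO 30 min 14 of the 16 were above 0, all on both arrays, with a median of 0.49. The exceptions were the dim 3′ probe of Rpl6 and Rpl3l in WT, and Rpl3l and Rps4l in KO. With median centring alone the medians were -0.24 and 0.50, and with normexp and loess -0.21 and 0.45. At 60 min the medians were -0.09 in WT and -0.06 in KO, with 14 and 13 of the 16 below 0, of which 10 and 7 were so on both arrays. With median centring alone 11 of 16 were below 0 in each. Among 10212 other probes in the same range the medians of the deposited ratios were -0.03, -0.06, -0.03 and -0.01, with 53.3% below 0 at WT 30 min and 45.2% above 0 at KO 30 min. The probes of a comparison share 1 pair of RNA samples, so they are not replicates of it, and no test between animals was possible.

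Within a gene, a dim probe could be set against the brightest one. This gave 12 pairs of probes in 10 genes, among them Rpl6, Rpl14, Rpl39 and Rps25, with the dim probe 44 to 3582 bp from the brightest one and on its 3′ side in 10 of the 12. As deposited, the dim probe had the lower ratio in 11 of 12 pairs at WT 30 min, by a median of -0.28, and the higher in 12 of 12 at KO 30 min, by 0.48. With median centring alone these gaps closed to 0.06 and -0.02, with 9 and 5 of the 12 above 0. Rps25 is an example, a small subunit gene whose bright and dim probes are shown above. Its brightest probe read -0.02 and its dim 3′ probe -0.34 at WT 30 min, and they read 0.02 and 0.65 at KO 30 min. For Rpl39 these values were -0.16 and -0.47, and then 0.07 and 0.59. In 67 genes that are no members, 76 such pairs gave medians of -0.27 and 0.44 as deposited and -0.02 and 0.03 with median centring alone, so the gap was not particular to ribosomal protein genes.

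**Figure D4:**
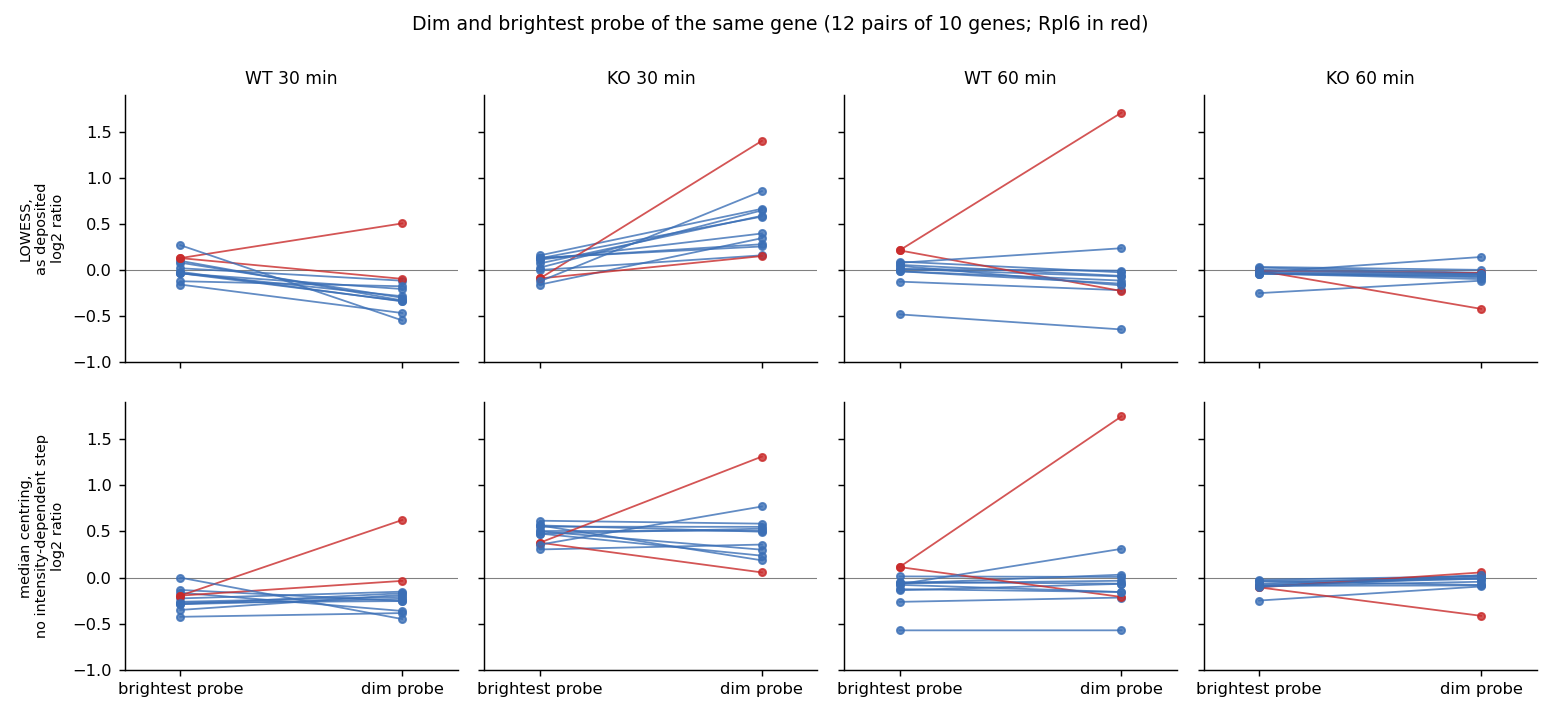
The log2 ratio of PACAP over vehicle (vertical axis) of the brightest and a dim probe of the same gene, joined by a line, for 12 pairs of 10 genes in the 4 comparisons, with the deposited LOWESS ratios above and median centring alone below, and Rpl6 in red. As deposited, the dim probe is lower in 11 of 12 pairs at WT 30 min and higher in 12 of 12 at KO 30 min, and with median centring alone the median gaps are 0.06 and -0.02.

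In levels of single RNA samples no ribosomal protein gene passed the test by genotype or by time. The median level of the 80 genes was between 15.25 and 15.31 in all 8 samples, which the normalisation between arrays helps to fix. The range of a gene over the 8 samples had a median of 0.19, with 76 of 80 under 0.5, against 0.28 for other probes at a level of 14 or more and 0.47 for all probes tested. The widest ranges were 1.07 for Rpl30, 0.91 for Rpl3l, 0.76 for Rpl39l, 0.72 for Rplp2 and 0.48 for Rpl14. The narrowest was 0.104 for the brightest probe of Rpl13a, whose 2 dimmer probes ranged over 0.454 and 0.460. In limma, with the hybridised pair as a random block, 0 of 79 genes passed between KO and WT, where 3.40% of all 26348 probes did, and 0 of 79 between 60 and 30 min, where 10.8% did. At an unadjusted p under 0.05 there was 1 gene in each, Rpl23 at 0.14 higher in KO (SE 0.05, adjusted p = 0.141) and Rpl41 at 0.13 higher at 60 min (adjusted p = 0.141). These background shares rest on 4 pairs, and with the vehicle samples alone or the PACAP samples alone 0 probes of all were called, with 3775 and 1442 at an unadjusted p under 0.05 for genotype and 6843 and 1267 for time.

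As a limited view of RNA integrity, a bright probe further to the 5′ side of a gene was set against one further to its 3′ side. Their distances on the genome ran from 213 bp (Rpl3) to 2858 bp (Rps18). Their places along the mRNA are not given, so both probes of a pair may lie near its 3′ end. In 20 genes with such probes, a median of 813 bp apart on the genome, the 5′ ratio minus the 3′ ratio had a median of -0.01 at WT 30 min, 0.07 at KO 30 min, 0.01 at WT 60 min and -0.03 at KO 60 min. The gaps of single genes ran from -0.16 to 0.16 over all 4 comparisons. In levels, the median of the 5′ minus the 3′ probe at KO 30 min was -0.20 with vehicle and -0.14 with PACAP. At WT 30 min it was -0.04 and -0.09, at WT 60 min -0.01 and -0.01, and at KO 60 min -0.07 and -0.13. The KO 30 min samples thus had the lowest signal at the 5′ side probes relative to the 3′ side probes. PACAP of KO 60 min, at -0.13, lay close to PACAP of KO 30 min, at -0.14. How far RNA quality enters the ratios at 30 min was not tested.

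The other genes of the translation machinery did not all follow the ribosomal protein genes. By group, the deposited medians at WT 30 min, KO 30 min, WT 60 min and KO 60 min were -0.03, 0.04, 0.00 and 0.00 for the large subunit and -0.05, 0.05, -0.03 and 0.00 for the small subunit. They were 0.00, -0.15, -0.14 and 0.00 for the P stalk, whose value at KO 30 min turned to 0.32 with median centring alone, and -0.15, 0.03, -0.07 and -0.07 for the divergent paralogs. The 7 measured genes of a list outside the name pattern (ubiquitin fusions, paralogs, Rack1 and others) gave 0.01, 0.04, -0.01 and 0.01. The dim Rpl7l1 among them, at a level of 8.92, read -0.37 at WT 30 min and 0.56 at KO 30 min, the values of that list furthest from 0. The 15 other genes listed for the same kind of mRNA start (11 of them elongation, initiation and poly(A)-binding factors, with Tpt1, Npm1, Nap1l1 and Hnrnpa1) gave 0.07, -0.19, 0.04 and 0.04, with 5 of 15 above 0 at KO 30 min. The 24 ribosome biogenesis genes, whose products build ribosomes in the nucleolus, gave 0.04, -0.18, 0.05 and 0.08, with 6 of 24 above 0 at KO 30 min. With median centring alone these 15 genes had -0.13 and 0.10 at WT and KO 30 min, which turns both signs, and their values at 60 min turned to -0.03 and -0.02, while the biogenesis genes kept theirs at 0.07 and -0.22.

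The 78 mitochondrial ribosomal protein genes, which serve the ribosome inside mitochondria, gave -0.15 at WT 30 min with 6 of 78 above 0, and 0.16 at KO 30 min with 59 of 78 above 0. Their level was lower than that of the cytosolic genes, at a median of 12.21, and median centring alone gave -0.24 and 0.35. At 60 min they read -0.08 in WT and -0.03 in KO. Of these lists, 0 genes passed the fold and p thresholds in any comparison and 0 passed limma for the PACAP effects. For levels, the test by time called 1 of the 15 genes with the same kind of mRNA start, 1 of 78 mitochondrial ribosomal genes, 1 of 12 housekeeping genes, 1 of 24 biogenesis genes and 1 of 12 epidermis and dermis markers, and the test by genotype 1 of 12 housekeeping genes. With 10.8% of all probes called by time, 1 gene of a list is near the background or below it. By genotype 1 of 12 is a higher share than the 3.40% of all probes, but it rests on 1 gene. By time the calls over all probes went from 2834 to 1 without replicate 2.

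Other cells and tissues in the samples moved with some of the comparisons. The 12 housekeeping genes had medians of 0.06, -0.01, -0.05 and 0.03, and median centring alone turned the first to -0.06, the second to 0.21 and the last to -0.02. The epidermis and dermis markers gave 0.18, -0.63, 0.18 and 0.26, with 1 of 12 above 0 at KO 30 min and 11 of 12 at WT 30 min. The 7 neutrophil markers (S100a8, Csf3r and others) gave 0.74, 1.17, -0.17 and 0.26, and 5 of the 7 were above background in every channel. The 7 measured hair shaft keratins gave 0.24, 1.37, 1.92 and -0.46, and 1 of them at WT 30 min, 5 at KO 30 min and 6 at WT 60 min passed the fold and p thresholds, which 0.350%, 0.708% and 0.692% of all probes did. At KO 30 min 3 of 14 muscle, 3 of 7 neutrophil and 2 of 12 epidermis and dermis markers passed as well. At KO 60 min 2 neutrophil markers passed, where 0.292% of all probes did. At WT 30 min, KO 30 min, WT 60 min and KO 60 min S100a8 had ratios of 0.74, 2.05, 0.90 and 2.19, and S100a9 had 0.95, 2.00, 0.55 and 1.84. Of the same list, Csf3r had 0.34, -0.44, -0.02 and 0.26, and Ly6g had -0.10, 0.94, -0.17 and -0.11. The dim 3′ probe of Rpl6 had its highest ratios at KO 30 min and WT 60 min, as had the hair shaft keratins by their median. The part of tissue content in the ribosomal protein ratios was not tested.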

How the data were processed

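Skin RNA of 4 PACAP and vehicle pairs was measured on 8 two-colour Agilent arrays, each pair on both dye orientations. The authors scanned the arrays with Feature Extraction (12.0.3.1 in the file headers, 11.0.1.1 in the submitters' processing notes, and another version in the methods). The deposited ratios are log10 of red over green, which the authors' software had LOWESS-normalised within arrays. The deposited p-value of a spot comes from the software's error models and speaks of 1 array. The deposited intensity values are raw means and background-subtracted or dye-normalised signals. The authors' series matrix held, at all 43020 spots, the log10 ratio of the dye-normalised red and green signals. These differed slightly from the deposited ratios, with a median over all probes of -0.055 against -0.048 at WT 30 min, on the log2 scale. Gene names, and coordinates in mm9, were taken as the files give them.

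Here ratios were turned to PACAP over vehicle, converted to log2 and averaged over spots and both arrays, leaving out control and outlier spots (198 to 342 per array). The deposited ratio was 0 at 13.4% to 25.0% of spots per array, where the software set none. Between 54.0% and 94.5% of spots per channel were well above background, and 97.4% to 100% of member spots, and the number of arrays limits the precision. Levels used normexp with an offset of 50, loess and Aquantile. Tests were limma 3.58.1 (R 4.3.3, lmFit and eBayes, Benjamini-Hochberg over all probes, adjusted p below 0.05), with probes above background as a filter and the pair as a random block for levels (consensus correlation 0.18). On simulated data the ratio fits kept to their nominal share of false calls and the level fits exceeded it. Sequences were read from the files and RefSeq tables, and the files name no exon for a probe. Figures were drawn with matplotlib 3.10.9 in Python 3.11.15.

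Genes named are those past the thresholds, the 3 highest and 3 lowest members of each comparison, the 5 smallest p of each fit, the P stalk, the divergent paralogs, common reference genes and members whose probes differ most, of which some are not reported here. The members, lists, level ranges and tests were chosen with earlier results of these data known. Alternatives were other normalisations, centring, filters, thresholds, probes and single arrays or pairs.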

Additional observations from a re-analysis of the deposited data

Results flagged for a closer look

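Among the 4 KO RNA samples, Rpl19 was lowest in the 60 min PACAP sample at a level of 15.25, with the other 3 between 15.31 and 15.32, so that a small difference stood out from very close values. Rpl30 was highest in the 30 min PACAP sample of KO at 11.73, with the highest of the other 3 at 11.08. These were 2 of 76 sets of 4 levels examined in this way. Chance alone marks about 1 in 20 of sets of replicates picked without their values. Here the genes were named in part by their values, and the 4 levels of a set differ in time and treatment, so that share is no measure for them.

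The dim ribosomal protein probes moved in opposite directions at 30 min in the genotypes, with a median ratio of -0.281 in WT and 0.4861 in KO. With 1 pair of RNA samples in each, the difference was not tested.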

How the results depend on the processing

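Ribosomal protein genes past the thresholds numbered 0 in each comparison under the other normalisations, centring, filters, p limits, the series matrix and single arrays. With a fold threshold of 1.5 there was 1 at WT 30 min (Rpl39l), 2 at KO 30 min (Rplp2 and Rpl39l) and 1 at WT 60 min (Rplp2). Counting all probes gave 1 at KO 30 min and 1 at WT 60 min. Median centring alone moved the median ratio to -0.2891 at WT 30 min, 0.5002 at KO 30 min and -0.1117 at WT 60 min. Between single dye orientations the median ran from -0.07066 to 0.005078 at WT 30 min, from -0.02002 to 0.05869 at KO 30 min, from -0.04339 to 0.007391 at WT 60 min and from -0.06316 to 0.03928 at KO 60 min. The cause was not tested.

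In limma the brightest probes gave 0 called ribosomal protein genes under every alternative run. Over all their probes Rps27a was called in the mean of the comparisons without replicate 1, Rpl27a and Rpl28 by genotype and Rpl6 by time with the pair left out of the model, and by time also Rpl6 with equal medians, Rpl6 and Rpl21 without replicate 1, and Rps16 and Rpl11 without a filter. Calls over all probes varied widely. Against 0 in the mean of the comparisons there were 2118 without replicate 1 and 2318 without replicate 2, and 1 with WT 30 min left out. Against 0 for the PACAP effect in KO against WT there were 170 without WT 30 min, 83 without WT 60 min and 17 with time as a covariate, and for 60 against 30 min 14 without KO 60 min and 2 with genotype as a covariate. Against 897 for levels by genotype there were 560 with equal medians, 2607 with the pair left out, 2305 without a filter, 152 without replicate 1, and 0 without replicate 2 or within a treatment. Against 2834 by time there were 4905 with the pair left out, 5852 without replicate 1, 1 without replicate 2, and 0 within a treatment.

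Of the named ratios, 46 of 152 changed sign with median centring alone, 20 of 156 with normexp and loess, 5 with each array centred, and 47 and 46 without replicate 1 or 2. By replicate number, no paired analysis was possible because the numbers mark the dye orientation of the same RNA pair, while the hybridised PACAP and vehicle pair is part of every ratio and is the block of the level fits. Levels without 1 of the 4 pairs were not fitted, since no residual degrees of freedom among pairs remain. The 1 pair of RNA samples per comparison limits every value.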
